A study of Homo sapiens with 8 samples.

Results

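The L1 family and the neural cell adhesion molecules were followed through 8 genes: L1CAM, CHL1, NFASC and NRCAM, which make up the L1 family, NCAM1 and NCAM2, and the contactins CNTN1 and CNTN2. They were chosen by name, with earlier results of these data known. All probe sets that name 1 of them alone were used, 26 of the 54675 on each array. The cells were labelled H9, an established human embryonic stem cell line, were grown in mTeSR medium and were measured on 8 expression arrays of total RNA. The groups were undifferentiated cells at 0 mM ethanol (Undiff 0 mM), undifferentiated cells at 20 mM (Undiff 20 mM), embryoid bodies at 0 mM (EB 0 mM) and embryoid bodies at 20 mM (EB 20 mM), with 2 arrays each and 24 h of treatment. An embryoid body is a clump of stem cells grown in suspension that starts to form derivatives of the germ layers, and the labels used here do not give their age. The labels call the arrays duplicates without naming separate cultures, so p-values measure only the spread between these arrays, which may be technical.

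These genes encode surface glycoproteins with immunoglobulin and fibronectin type III domains. L1 family proteins span the membrane, bind each other or partner molecules on neighbouring cells, guide growing axons and anchor to the spectrin skeleton through ankyrin. NCAM proteins act in cell adhesion and signal through FGF receptors, and contactins, held by a lipid anchor, pair with L1 family and CASPR proteins. Adhesion mediated by L1 is a known target of ethanol.

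The deposited signals had a trimmed mean of 500 to 500.1 on every array, and array medians of 69.2 to 102. Replicate arrays correlated at 0.981 to 0.988 over 14072 tested genes. Transcripts that tell cell lines apart disagreed with the labelled line on 4 of the 8 arrays, and these 4 all came from 1 stage, so in each comparison of stages the stage and the line cannot be told apart. Marker genes of pluripotent cells had summed signals of 123000 to 132000 in undifferentiated cells, 93700 to 96100 in EB 0 mM and 81300 to 85200 in EB 20 mM. Neuron markers summed to 25500 to 26000 in undifferentiated cells, where 12 of 14 lay above the array median, and to 28100 to 32200 in embryoid bodies, where 14 did. TUBB3 alone gave 16000, 16200, 15700 and 13500 as group means, in the order of the groups above. Of 14 tested neuron markers 8 were called higher and 1 lower at 0 mM (adjusted p under 0.05 by limma). ELAVL3 had group means of 50.7 and 35.5 in undifferentiated cells, under the array medians, and of 129 and 138 in embryoid bodies. It entered the test through the embryoid bodies, which favoured a higher value there. Over all tested genes 28.0% were called higher and 24.7% lower. As group means MAP2 went from 324 to 2990 and RBFOX3 from 589 to 219. Neural progenitor markers summed to 10700 to 13500 in undifferentiated cells and to 30700 to 33100 in embryoid bodies. Mesoderm and mesenchyme markers summed to 2980 to 3970 in undifferentiated cells, 24600 to 25200 in EB 0 mM and 45200 to 45400 in EB 20 mM. Endoderm markers summed to 734 to 1010, 28600 to 28700 and 36900 to 37500 in the same order. Bright genes weigh most in these sums: COL3A1 alone gave 8910 in EB 0 mM and 17200 in EB 20 mM. With ethanol in embryoid bodies limma called 0 of 9 tested mesoderm and mesenchyme markers, 0 of 8 endoderm and 0 of 10 pluripotent cell markers. The smallest adjusted p was 0.0737, 0.172 and 0.0822 by limma, and 0.0711% of all tested genes were called. Glia markers summed to 1270 to 2160 over all arrays, with 4 to 6 of 10 above the median, and GFAP lay far under every array median (6.46 to 23.4 as group means). Of 7 tested glia markers 3 rose and 4 fell between the stages at 0 mM, where 28.0% of all tested genes were called higher and 24.7% lower. As group means SOX10 went from 140 to 417 and S100B from 2.40 to 111, while MBP went from 646 to 211 and AQP4 from 158 to 49.0. By group mean, S100B and OLIG2 lay above the array medians only in EB 0 mM, and AQP4 only in undifferentiated cells. These markers thus entered the test through the stage where they were high, which favoured their place in the counts. Cardiac markers summed to 3440 to 3950, of which ACTC1 alone gave 2820 to 2950 as group means. Of 6 tested cardiac markers 2 rose and 0 fell at 0 mM, and 2 of 6 is near the 28.0% of all tested genes called higher. MYL4 went from 266 to 412 and MYL7 from 22.4 to 316 as group means. MYL7 was under the array medians in undifferentiated cells and entered the test through the embryoid bodies, so its count was favoured by this. TNNI1 lay far under every median (7.24 to 9.66). The part of these cell types in the results below was not tested, and in RNA of whole cultures a change in the number of cells of a type and a change in RNA per cell cannot be told apart.

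The family split between undifferentiated cells and embryoid bodies, a comparison in which stage and line cannot be told apart. Without ethanol, NRCAM, CHL1, NCAM1, NFASC and CNTN2 rose in embryoid bodies, by 2.79-fold to 10.8-fold, and L1CAM and CNTN1 fell, by 1.46-fold and 1.33-fold. The calls of L1CAM and CNTN1 at 0 mM did not hold under all alternative settings, as given below. With ethanol the same 5 genes rose, by 3.63-fold to 13.0-fold, CNTN1 fell by 1.43-fold (not called with the mean of its probe sets, -0.12 on the log2 scale, adjusted p = 0.429 by limma), and L1CAM was at 1.10-fold lower without passing the test. Of the 8 genes 7 were tested, since NCAM2 lay under the median of every array. Among all tested genes 28.0% were called higher and 24.7% lower at 0 mM, and 29.2% and 27.1% at 20 mM, so a call between the stages is common on these arrays. A call is an adjusted p under 0.05 in limma, adjusted by Benjamini-Hochberg over all tested genes. A gene entered the test when at least 2 arrays lay above their median. CHL1 met this through the embryoid bodies alone and CNTN2 with 1 of 4 undifferentiated arrays, so their higher values there were favoured by the filter and their folds, taken over dim signals, are imprecise.

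**Figure D1:**
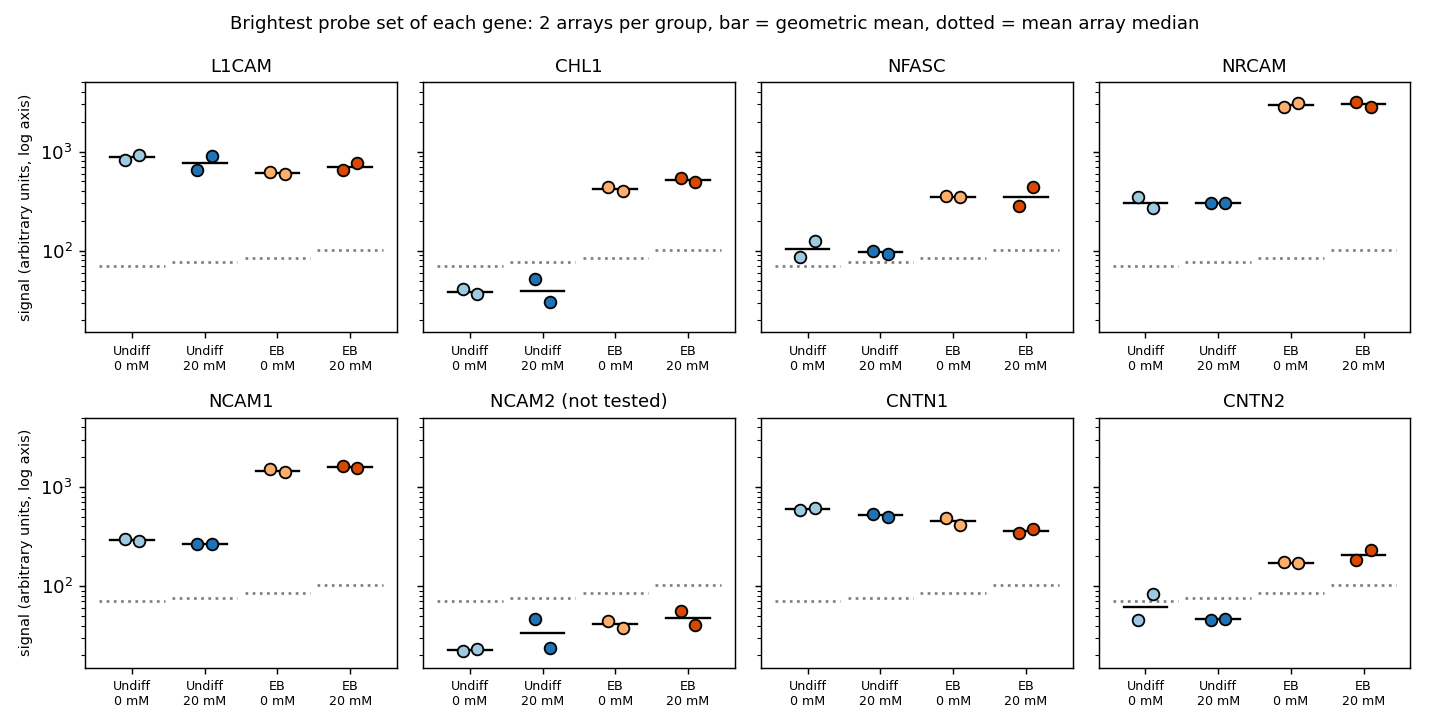
Signals on a log axis of the brightest probe set of each gene, 1 point per array, with the geometric mean of each group as a bar and the mean array median of the group as a dotted line. NRCAM, NCAM1, CHL1, NFASC and CNTN2 sit higher in all 4 embryoid body arrays than in all 4 undifferentiated arrays, while NCAM2 stays under the dotted lines; levels of different genes are not comparable.

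Within the L1 family, NRCAM, which in neurons takes part in axon guidance and in building nodes of Ranvier, had the smallest standard error. Its signals were 347 and 269 in Undiff 0 mM, 302 on both arrays of Undiff 20 mM, 2820 and 3090 in EB 0 mM and 3160 and 2820 in EB 20 mM. Every embryoid body array was above every undifferentiated array. The log2 change between the stages was 3.27 ± 0.14 (SE, n = 2 arrays per group, adjusted p = 5.22e-05 by limma) without ethanol and 3.31 ± 0.14 (adjusted p = 4.5e-05) with it. Within a stage the arrays of the 2 doses overlapped.

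CHL1, the close homologue of L1 that promotes neurite growth and survival, was dim in undifferentiated cells. It read 40.7 and 36.3 in Undiff 0 mM, 51.3 and 30.2 in Undiff 20 mM, 437 and 398 in EB 0 mM and 537 and 490 in EB 20 mM. The 4 embryoid body arrays were all far above the other 4. No undifferentiated array reached its median, so CHL1 entered the test through the embryoid bodies alone, which favoured a higher value there. The size of the fold is imprecise, and the p-values carry the same limit. The log2 change was 3.44 ± 0.24 at 0 mM (adjusted p = 0.000257 by limma) and 3.70 ± 0.24 at 20 mM (adjusted p = 0.000178). CNTN4, a contactin gene that follows CHL1 and CNTN6 in the order of protein-coding genes on chromosome 3 in RefSeq, also rose, by 3.39-fold and 4.07-fold.

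NFASC encodes neurofascin, which gathers sodium channels at the axon initial segment and at nodes. Signals of NFASC were 87.1 and 126 in Undiff 0 mM, 100 and 93.3 in Undiff 20 mM, 355 and 347 in EB 0 mM and 282 and 437 in EB 20 mM. The stages did not overlap, while the EB 20 mM arrays lay on either side of the EB 0 mM arrays. The log2 change was 1.74 ± 0.25 (adjusted p = 0.00258 by limma) at 0 mM and 1.86 ± 0.25 (adjusted p = 0.00174) at 20 mM.

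L1CAM, the founding member of the family, ran against the other 3. Its signals were 832 and 933 in Undiff 0 mM, 646 and 912 in Undiff 20 mM, 617 and 589 in EB 0 mM and 646 and 759 in EB 20 mM. The groups at 0 mM did not overlap, and those at 20 mM did. The log2 change between the stages was -0.55 ± 0.18 (95% interval -0.99 to -0.10, adjusted p = 0.0459 by limma) at 0 mM and -0.13 ± 0.18 (interval -0.58 to 0.31, adjusted p = 0.562) at 20 mM. The call at 0 mM ended without Undiff 0 mM replicate A (adjusted p = 0.0891) or B (0.17), EB 0 mM replicate A (0.118) or B (0.156), and EB 20 mM replicate A (0.0626) or B (0.0629). It also ended with no filter on dim genes (adjusted p = 0.0873 by limma), with the mean of the probe sets (-0.17, adjusted p = 0.369) and with the probe set of highest SD (0.0545), so that 10 of 19 alternatives kept it. The change at 20 mM minus that at 0 mM, which equals the difference of the ethanol effects, was 0.42 ± 0.25 and did not pass (adjusted p = 0.53 by limma).

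Promoter sequence is given for NRCAM and CHL1, which rose between the stages, and for L1CAM, which fell at 0 mM. The lines hold the 250 bases before the most upstream of the starts listed for the gene in the promoter set used (GRCh38.p14). They run 5′ to 3′ on the strand of the gene, at chr7:108456437-108456686 (minus strand), chr3:196513-196762 (plus strand) and chrX:153876015-153876264 (minus strand). Starts that this set does not list, which may lie further upstream, were not examined. Capitals mark GC boxes, GGGCGG or its reverse complement CCGCCC, which bind SP family factors.
NRCAM: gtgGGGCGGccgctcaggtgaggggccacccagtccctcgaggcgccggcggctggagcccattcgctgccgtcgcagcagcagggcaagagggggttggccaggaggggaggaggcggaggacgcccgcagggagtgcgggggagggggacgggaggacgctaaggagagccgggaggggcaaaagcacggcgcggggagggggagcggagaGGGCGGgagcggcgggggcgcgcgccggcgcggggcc
CHL1: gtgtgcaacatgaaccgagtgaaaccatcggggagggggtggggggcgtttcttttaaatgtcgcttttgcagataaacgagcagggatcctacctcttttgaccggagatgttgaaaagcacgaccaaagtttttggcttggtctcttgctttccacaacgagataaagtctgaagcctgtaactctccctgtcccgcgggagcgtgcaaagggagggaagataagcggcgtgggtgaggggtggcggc
L1CAM: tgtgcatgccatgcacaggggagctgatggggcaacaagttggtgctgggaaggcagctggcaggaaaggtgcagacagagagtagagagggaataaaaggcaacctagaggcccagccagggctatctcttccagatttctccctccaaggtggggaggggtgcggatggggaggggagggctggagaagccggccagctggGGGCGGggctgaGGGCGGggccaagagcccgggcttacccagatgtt
NRCAM and L1CAM each held 2 GC boxes and CHL1 held 0, and 42.6% of the 35116 windows of this length in the table held at least 1. CpG pairs numbered 29 for NRCAM, 14 for CHL1 and 5 for L1CAM, against a median of 11 over all windows. The TATA box TATAAA or its reverse complement TTTATA was in none of the 3 windows and in 10.7% of all windows. Of the 8 genes 7 had a window in the table. These are letter matches only, and the arrays did not measure these promoters.

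NCAM1, which mediates adhesion in neural tissue and muscle and carries polysialic acid in the embryo, rose in both comparisons of stages. Its signals were 302 and 288 in Undiff 0 mM, 263 on both arrays of Undiff 20 mM, 1510 and 1410 in EB 0 mM and 1620 and 1550 in EB 20 mM. The highest undifferentiated array was far under the lowest embryoid body array. The log2 change was 2.31 ± 0.07 (adjusted p = 2.62e-05 by limma) without ethanol and 2.59 ± 0.07 (adjusted p = 1.81e-05) with it.

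NCAM2, a related molecule best known from olfactory axons, did not pass the filter on dim genes. Its brightest probe set read 21.9 and 23.4 in Undiff 0 mM, 46.8 and 24.0 in Undiff 20 mM, 44.7 and 38.0 in EB 0 mM and 56.2 and 40.7 in EB 20 mM. All 8 values lay under the median of their array, and so did those of its other 2 probe sets. At such signals no level or change was read, and whether the RNA was present was not tested.

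The 2 contactins moved in opposite directions. CNTN1, a partner of NFASC and NRCAM in axon contacts, read 589 and 617 in Undiff 0 mM, 537 and 501 in Undiff 20 mM, 490 and 417 in EB 0 mM and 347 and 380 in EB 20 mM. Neither pair of stages overlapped. The log2 change between stages was -0.42 ± 0.11 (adjusted p = 0.0195 by limma) at 0 mM and -0.51 ± 0.11 (adjusted p = 0.00823) at 20 mM. The call at 0 mM ended without Undiff 0 mM replicate A (adjusted p = 0.0562) or B (0.0809) and without EB 0 mM replicate B (0.0938). The groups fell in the order Undiff 0 mM, Undiff 20 mM, EB 0 mM and EB 20 mM, and no pair of doses within a stage passed the test.

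CNTN2, also called TAG-1, marks early growing axons. It read 45.7 and 83.2 in Undiff 0 mM, 45.7 and 46.8 in Undiff 20 mM, 174 and 170 in EB 0 mM and 182 and 229 in EB 20 mM. All embryoid body arrays exceeded all undifferentiated ones, of which only Undiff 0 mM replicate B was above its array median. The log2 change was 1.48 ± 0.28 (adjusted p = 0.00679 by limma) at 0 mM and 2.14 ± 0.28 (adjusted p = 0.00151) at 20 mM. Without Undiff 0 mM replicate A the value at 0 mM was 1.05, and without replicate B it was 1.91. NFASC and CNTN2 are neighbours among the protein-coding genes of chromosome 1 in RefSeq, and their log2 signals correlated by 0.98 over the 8 arrays, which share the split by stage.

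**Figure D2:**
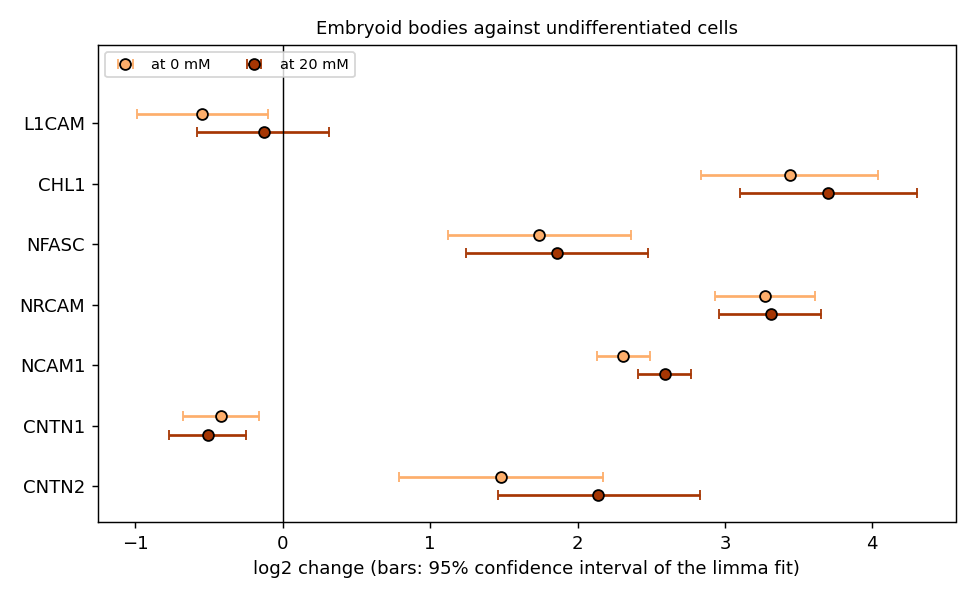
Log2 change from undifferentiated cells to embryoid bodies for the 7 tested genes at 0 and 20 mM, with 95% confidence intervals from limma (n = 2 arrays per group). CHL1 and NRCAM lie above 3 at both doses, CNTN1 lies under 0 at both, and the interval of L1CAM crosses 0 at 20 mM only.

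Ethanol changed none of the 7 tested genes past the threshold, in undifferentiated cells or in embryoid bodies. In undifferentiated cells the log2 changes ran from -0.42 to 0.03, with 6 of 7 negative and a median of -0.17, against a median of 0.02 over all tested genes. In embryoid bodies they ran from -0.32 to 0.30, with a median of 0.12, again against 0.02. There CNTN1 was negative, NFASC was at 0 and the other tested genes were positive. Of all tested genes 51.7% were positive in undifferentiated cells and 50.6% in embryoid bodies. Limma called 0.00711% of all tested genes in undifferentiated cells and 0.0711% in embryoid bodies. The count over all genes in embryoid bodies depended on the settings: it was 10 here, 0 with a replicate block, 477 with a filter at the 75th percentile and 959 with trended and robust variance, and 0 members were called under these. At an unadjusted p under 0.05 there were 0 of the 7 in undifferentiated cells and 1 in embryoid bodies. The design could miss moderate changes, as the intervals below show.

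L1CAM was at -0.20 ± 0.18 with ethanol in undifferentiated cells (95% interval -0.64 to 0.25) and 0.22 ± 0.18 in embryoid bodies (interval -0.23 to 0.66). On the linear scale these intervals allow anything from 0.64 to 1.19 times and from 0.853 to 1.58 times the level without ethanol. Both EB 20 mM arrays were above both EB 0 mM arrays, and the undifferentiated groups overlapped.

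NRCAM was close to 0 with ethanol at both stages, at -0.02 ± 0.14 (interval -0.36 to 0.32) and 0.02 ± 0.14 (interval -0.32 to 0.36). For NFASC the undifferentiated value was -0.12 ± 0.25, and the one in embryoid bodies was 0.00 ± 0.25, with an interval of -0.62 to 0.62. CHL1 was at 0.03 ± 0.24 and 0.30 ± 0.24, and both EB 20 mM arrays were above those of EB 0 mM. CNTN2 was at -0.42 ± 0.28 in undifferentiated cells, where the value rested on Undiff 0 mM replicate B and was 0.02 without it. In embryoid bodies CNTN2 was at 0.25 ± 0.28.

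CNTN1 had the smallest p-value of the family for ethanol in embryoid bodies and in the average over the stages. In undifferentiated cells it was at -0.22 ± 0.11 (adjusted p = 0.767 by limma) and in embryoid bodies at -0.32 ± 0.11 (interval -0.58 to -0.06, adjusted p = 0.171), and the ethanol arrays were below the others at both stages. Averaged over the stages the change was -0.27 ± 0.07 (interval -0.45 to -0.08, adjusted p = 0.201), and 0 of the 7 genes were called by limma in that average, against 0.0355% of all tested genes. At an unadjusted p under 0.05 the average held 1 of the 7.

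NCAM1 was at -0.17 ± 0.07 with ethanol in undifferentiated cells (adjusted p = 0.72 by limma) and 0.12 ± 0.07 in embryoid bodies (adjusted p = 0.394). Its arrays did not overlap between doses at either stage, lower with ethanol in undifferentiated cells and higher in embryoid bodies. The difference of these effects was 0.28 ± 0.10 (interval 0.03 to 0.54, adjusted p = 0.359). No gene of the family, and 0% of all tested genes, was called by limma for a difference of the ethanol effects, with 1 of the 7 and 1828 of all genes at an unadjusted p under 0.05.

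Counted by arrays that did not overlap between doses, 2 of the 7 genes were lower in undifferentiated cells, NCAM1 and CNTN1, where 12.1% of all tested genes were. In embryoid bodies 4 were higher (L1CAM, CHL1, NCAM1 and CNTN2) and CNTN1 was lower, against 29.4% and 28.1% of all genes. The directions in embryoid bodies depend on scaling: centring each array on its median moved the median of all genes to -0.25 and gave -0.05 for L1CAM, -0.15 for NCAM1, -0.02 for CNTN2 and -0.25 for NRCAM. Under that centring CNTN1 was called lower in embryoid bodies, at -0.58 ± 0.10 (adjusted p = 0.0196 by limma).

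**Figure D3:**
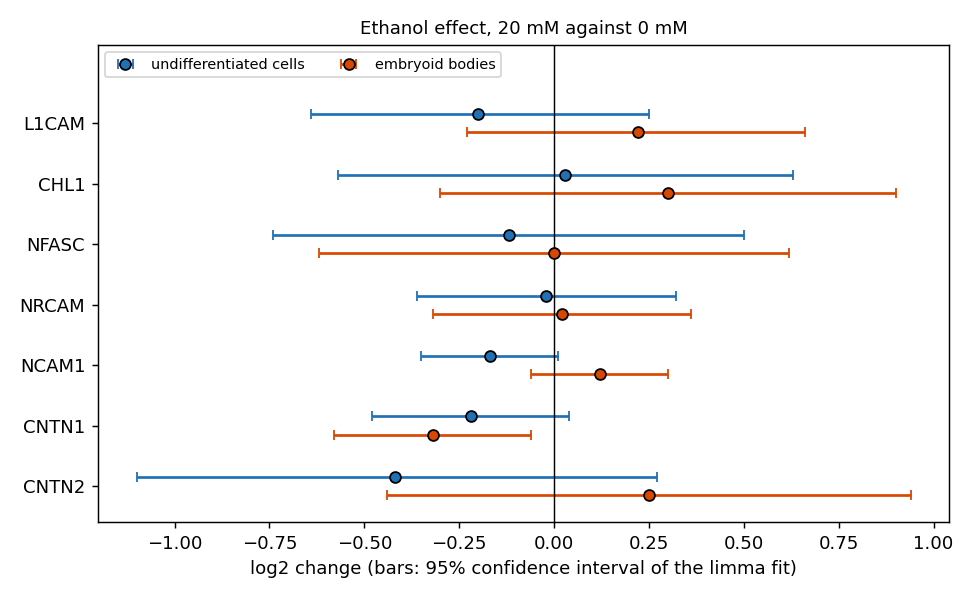
Log2 change with 20 mM ethanol for the 7 tested genes in undifferentiated cells and in embryoid bodies, with 95% confidence intervals from limma (n = 2 arrays per group). Among the intervals, that of CNTN1 in embryoid bodies, -0.58 to -0.06, is the one that leaves out 0, and its adjusted p of 0.171 does not pass.

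Several genes had more than 1 usable probe set, which can read other stretches of the transcripts. Of the 26 probe sets 13 passed the filter, and in a fit over all 25780 probe sets 10 of these 13 were called between the stages at 0 mM, where 46.2% of all were, and 9 of 13 at 20 mM, where 50.5% were. In this larger fit the L1CAM probe set 204584_at just missed the threshold at 0 mM (adjusted p = 0.0534 by limma). The second L1CAM probe set, 204585_s_at, read 5.89 to 8.91 on all arrays, between the 9.04th and 12.9th percentiles of an array, and thus gave no level.

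The 3 usable NCAM1 probe sets all rose between the stages at 0 mM. The brightest, 227394_at, changed by 2.31 on the log2 scale, 212843_at by 2.44 ± 0.18 and 231532_at by 1.41 ± 0.19. With ethanol, 231532_at went from group means of 57.5 to 79.4 (undifferentiated) and from 153 to 219 (embryoid bodies), log2 changes of 0.47 ± 0.19 and 0.51 ± 0.19 that did not pass (adjusted p = 0.715 and 0.232 by limma). In undifferentiated cells this sign opposes that of 227394_at. The other 4 NCAM1 probe sets stayed under the median of every array, with signals of 2.04 to 66.1.

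Both usable NFASC probe sets rose, 213438_at by 1.74 and 230242_at by 0.65 ± 0.12 (adjusted p = 0.00674 by limma) on the log2 scale at 0 mM. The other NFASC sets, 243645_at and 214799_at, were under every array median and read 8.22 and 14.6 in Undiff 0 mM and 73.3 and 53.1 in EB 0 mM as group means. The second NRCAM set, 216959_x_at, had a log2 change of 1.03 ± 0.40 that did not pass (adjusted p = 0.0804 by limma), against 3.27 for 204105_s_at. Its signals were 34.7 to 123, around the array medians.

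For CNTN1 the probe sets disagreed on ethanol in embryoid bodies. While 227209_at was at -0.32 ± 0.11, 227202_at was at 0.38 ± 0.11 and 211203_s_at at 0.40 ± 0.30, none of them past the threshold (adjusted p = 0.226, 0.173 and 0.515 by limma). Group means of 227202_at were 153 in Undiff 0 mM, 136 in Undiff 20 mM, 101 in EB 0 mM and 132 in EB 20 mM. It fell between the stages at 0 mM, by 0.60 on the log2 scale (adjusted p = 0.00655 by limma), but was at -0.05 ± 0.11 at 20 mM. Between the stages 211203_s_at was at -0.43 ± 0.30 at 0 mM and -0.18 ± 0.30 at 20 mM, neither called. The lower CNTN1 value with ethanol was therefore seen with 1 of 3 usable probe sets, and the mean of all CNTN1 probe sets was at 0.09.

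**Figure D4:**
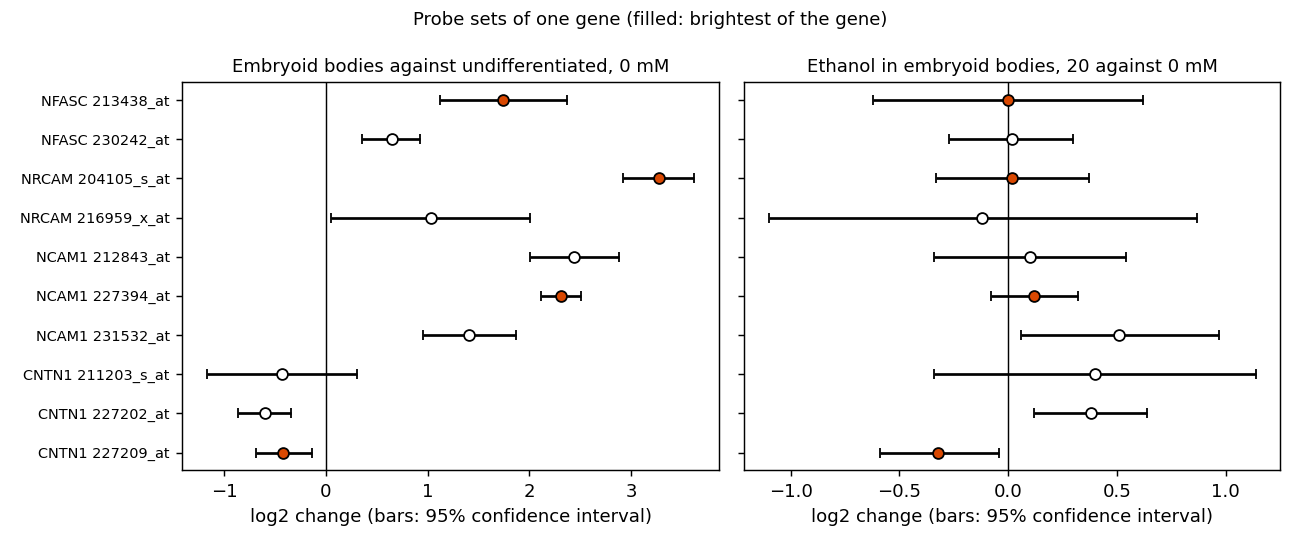
Log2 changes of all usable probe sets of the 4 genes that have more than 1, between the stages at 0 mM (left) and with ethanol in embryoid bodies (right), with 95% confidence intervals from limma (n = 2 arrays per group). Filled points are the brightest set of a gene; on the right the filled CNTN1 point lies at -0.32 and the 2 open ones at 0.38 and 0.40.

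Lists of partner genes differed between the stages. They were chosen with earlier results of these data known, so their counts against the shares of all genes are a description and no independent test. All 6 tested genes of the list of sheddases and polysialyltransferases rose at 0 mM, with a median log2 change of 0.86 against 0.02 over all genes, and 28.0% of all genes were called higher. Of the enzymes that put polysialic acid on NCAM1, ST8SIA2 rose by 9.23-fold (129 to 1190, adjusted p = 9.38e-05 by limma). ST8SIA4 read 28.8 in Undiff 0 mM, under the array medians, and 822 in EB 0 mM, so it passed the filter through the embryoid bodies, its count among the 6 was favoured by this, and no fold is given. The proteases BACE1 and ADAM17, which cut L1 family and NCAM proteins from the surface, rose by 1.88-fold and 1.76-fold. With ethanol 0 of these 6 genes were called by limma at either stage.

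Of the other contactins and the CASPR partners, 4 of 6 tested genes rose and 0 fell at 0 mM, against 28.0% and 24.7% of all genes. CNTN3 read 37.6 in Undiff 0 mM, under the array medians, and 582 in EB 0 mM, and it too entered the test through the embryoid bodies. CNTN4 rose by 3.39-fold, CNTNAP1, a partner of CNTN1 at paranodes, by 2.66-fold, and CNTNAP2 by 2.48-fold (3470 to 8610).

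In the ankyrin and spectrin scaffold that L1 family proteins bind, 3 of 10 tested genes were higher and 3 lower at 0 mM, with a median of -0.07. These counts are near the shares over all genes, 28.0% and 24.7%. SPTBN4 (named after its value was seen) was called lower at both doses. Its group means in embryoid bodies, 78.5 and 53.1, lay under the array medians. It thus entered the test through the undifferentiated cells, which favoured a lower value in embryoid bodies. ANK2 rose by 2.19-fold and ANK1 fell by 2.60-fold, while ANK3, the ankyrin of the axon initial segment, was at -0.12 ± 0.09 (chosen after its value was seen). DCX, which binds neurofascin and is also a neuron marker on another list, rose by 3.13-fold.

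Signalling partners and ligands gave 17 of 22 tested genes higher and 2 lower at 0 mM, against 28.0% and 24.7% of all genes, with a median of 0.61. Tenascin C (TNC), a matrix ligand of contactins, rose by 15.7-fold (197 to 3090, adjusted p = 3.36e-05 by limma). NRP1, the semaphorin coreceptor that pairs with L1, read 37.2 in Undiff 0 mM, under the array medians, and 525 in EB 0 mM, and entered the test through the embryoid bodies. The integrin subunits ITGA5 and ITGAV rose by 2.07-fold and 2.02-fold. Among other immunoglobulin adhesion molecules 14 of 21 rose and 0 fell, against the same shares of all genes, with a median of 1.03. Those of smallest p were SDK2 at 6.10-fold, LSAMP at 5.96-fold, ALCAM at 2.48-fold and CADM1 at 3.59-fold.

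At 20 mM the counts for these lists between the stages were 6 of 6, 4 of 6, 4 of 10, 17 of 22 and 15 of 21 higher, in the order given, with 0, 0, 2, 1 and 0 lower. Over all genes 29.2% were higher and 27.1% lower, so the ankyrin and spectrin counts are near the background here too. No gene of these lists was called by limma for ethanol, and the smallest adjusted p was 0.609 in undifferentiated cells and 0.105 in embryoid bodies. The median ethanol change in embryoid bodies was 0.17 for signalling partners and 0.15 for other immunoglobulin molecules, against 0.02 over all genes.

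**Figure D5:**
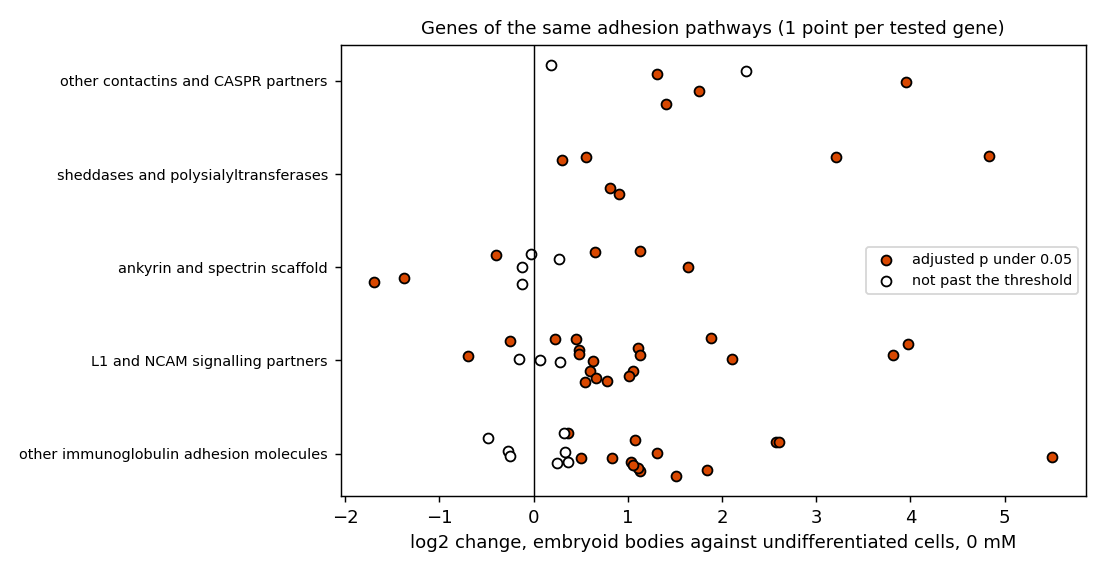
Log2 change from undifferentiated cells to embryoid bodies at 0 mM for each tested gene of 5 lists of partners and relatives, filled where the adjusted p is under 0.05. All 6 points of the sheddases and polysialyltransferases lie above 0, while the ankyrin and spectrin scaffold spreads on both sides.

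The genes whose log2 signals followed a family member most closely over the 8 arrays were picked by Pearson correlation, as a description. For CHL1 they were ALCAM (0.9995), another adhesion molecule, the protease gene CTSB (0.9991) and the homeobox gene MSX1 (0.9986). For NCAM1 they were the aquaporin AQP3 (0.9995), the lysophospholipase D gene ENPP2 (0.9992) and BAMBI (0.9991), a pseudoreceptor of the TGF-beta family. For NRCAM they were GATA3 (0.9993), MAN2B2 (0.9993) and B4GALT1 (0.9989). Such values are common among genes split by stage: 300, 415 and 393 genes exceeded 0.99 with CHL1, NCAM1 and NRCAM. NFASC was followed by ZMYND11 (0.9916), PCTP (0.9915) and SLC2A10 (0.9905), and CNTN2 by DIS3L2 (0.9943), FAP (0.9936) and ANGPTL4 (0.9926). L1CAM and CNTN1 had 0 genes over 0.99, with KCNQ5 (0.9603), DSEL (0.9569) and OLFML2B (0.9534) nearest to L1CAM and MAPKAPK3 (0.9848), UQCRQ (0.9826) and LAMTOR2 (0.9781) nearest to CNTN1. L1CAM was negatively correlated with CHL1, NRCAM and NCAM1, at -0.73, -0.70 and -0.67.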

How the data were processed

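Total RNA of 8 samples was measured on Affymetrix arrays. The deposited values are log10 signals by the evidence of the values, which run from -1.46 to 4.61 in steps of 0.01 and share a trimmed mean on the linear scale; the submitters' processing notes name RMA, whose values do not look like this, and give no version. The planned test assumed log2 values, so they were converted to log2 by a constant, without further normalisation, so the step is 0.0332. Probe sets were named from the platform annotation: 41091 name 1 gene, 1801 several and 11783 none. Each of 19775 genes was represented by its probe set with the highest mean, and 14072 genes with at least 2 arrays above the array median were tested with limma (version 3.58.1, R version 4.3.3). The model gave each of the 4 groups its mean, had 4 residual degrees of freedom and borrowed 1.81 more across genes. The fit was tested on simulated data. Errors are standard errors of the fit.

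Members and lists were chosen with earlier results of these data known. All members were named, with up to 4 genes of smallest p per list and 3 genes of most similar pattern per member. The number of arrays limits the precision. Replicate letters did not pair the arrays, since deviations from group means correlated by -0.026 to 0.049 between like-lettered arrays.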

Additional observations from a re-analysis of the deposited data

Results flagged for a closer look

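NCAM1 stood out because its arrays differed between doses in opposite directions at the 2 stages. Both Undiff 20 mM arrays were below both Undiff 0 mM arrays, as for 12.1% of all tested genes. Both EB 20 mM arrays were above both EB 0 mM arrays, as for 29.4% of all tested genes. The share of genes with both patterns was not counted. The difference of the ethanol effects, embryoid bodies minus undifferentiated cells, was 0.28 on the log2 scale (n = 2 arrays per group, adjusted p = 0.359 by limma), which did not pass. The effect in embryoid bodies turned negative when arrays were centred on their medians, at -0.15. Of the other usable NCAM1 probe sets, 212843_at was at 0.05 and 0.10 at the 2 stages and 231532_at at 0.47 and 0.51, so neither showed opposite signs.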

How the results depend on the processing

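Between the stages, CHL1, NFASC, NRCAM, NCAM1 and CNTN2 kept their calls under every alternative in which they were tested. The counts of 7 and 6 members called at 0 and 20 mM became 4 and 3 of 4 tested with a filter at the 75th percentile, 3 and 2 of 4 tested with the mean of the probe sets, and 3 and 3 of 4 tested with the probe set of highest SD, where fewer genes were tested. They were 7 and 6 with a replicate block, which changed no call, and also with median centring, although the split of all genes at 0 mM moved from 3946 higher and 3478 lower to 2506 and 5814. Median centring called 1 member, CNTN1, with ethanol in embryoid bodies, and 2, CNTN1 and NCAM1, in the average over stages; all genes called went from 10 to 3880 in embryoid bodies. Leaving out 1 array left 5 to 7 members called at 0 mM and 6 at 20 mM.

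Signs of small ethanol changes turned in places. With the mean of the probe sets, L1CAM was at 0.02 in undifferentiated cells and 0.04 between the stages at 20 mM, NRCAM at -0.05 and CNTN1 at 0.09 in embryoid bodies, CNTN1 at 0.24 for the difference of the ethanol effects and NFASC at 0.03 for their average. Median centring gave -0.10 for CHL1 in undifferentiated cells; -0.05, -0.25, -0.15 and -0.02 for L1CAM, NRCAM, NCAM1 and CNTN2 in embryoid bodies; -0.02 and -0.10 for the differences of NFASC and NRCAM; and -0.19 and -0.03 for the averages of L1CAM and CHL1. CHL1 in undifferentiated cells was at -0.11 after quantile normalisation and -0.05 after cyclic loess. Leaving out 1 array gave ranges across 0 in undifferentiated cells for L1CAM (-0.45 to 0.05), CHL1 (-0.35 to 0.42), NFASC (-0.38 to 0.15), NRCAM (-0.20 to 0.17) and CNTN2 (-0.85 to 0.02), and in embryoid bodies for NFASC (-0.32 to 0.32) and NRCAM (-0.07 to 0.10). It did so for the differences of CHL1 (-0.12 to 0.65), NFASC (-0.20 to 0.43), NRCAM (-0.15 to 0.22) and CNTN1 (-0.22 to 0.02), for the averages of L1CAM (-0.12 to 0.13), CHL1 (-0.02 to 0.36), NFASC (-0.22 to 0.10), NRCAM (-0.09 to 0.09) and CNTN2 (-0.30 to 0.13), and for L1CAM between the stages at 20 mM (-0.38 to 0.12). The cause was not tested. Signals under or near the array median limit what can be read for CHL1 and CNTN2 in undifferentiated cells and for NCAM2 at both stages.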
